A study of Homo sapiens with 8 samples.

Results

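The regions described here were accessible chromatin sites near annotated starts of long non-coding RNA (lncRNA) genes and away from those of protein-coding genes. Peaks of 4 ATAC-seq libraries were merged wherever they shared 1 bp. The summit of a merged region was that of its highest ranked peak. A region was kept if its summit lay within 1 kb of a lncRNA transcript start and over 5 kb from every protein-coding start in the GENCODE annotation on GRCh37 (hg19). Of 43654 merged regions, 1548 met both conditions and are called lncRNA-only promoters below. The name rests on distance to annotated starts alone, and promoter activity was not measured. The rule used no difference between PBS and SCF libraries. A region did need a peak in any of the 4 libraries, and the highest rank among them set its summit. Earlier results of these data were known when the members were chosen.

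ATAC-seq uses the transposase Tn5 to insert sequencing adapters into open chromatin. The cells were HUDEP-2, an established line of human erythroid progenitors that is maintained with doxycycline. All cells used here carried a control guide RNA (sgControl), were starved for 5 h in medium with bovine serum albumin, and then received phosphate-buffered saline (PBS) or 50 ng/ml stem cell factor (SCF) for 1 h. SCF is the ligand of the receptor tyrosine kinase Kit, and the comparison asks where chromatin opens or closes when Kit is activated. Each treatment had 2 libraries, which the study's methods describe as biological duplicates, made from 50000 cells each. The sgEGR1 libraries of the series were not analysed here.

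LncRNAs are transcripts that are spliced and capped much like messenger RNAs but encode no known protein. Their promoters are bound by RNA polymerase II and many start divergently from enhancers or CpG islands. Some lncRNAs are host genes, whose introns or exons are processed into small nucleolar RNAs (snoRNAs) or microRNAs, and others act in the nucleus as scaffolds or regulators of neighbouring genes. AP-1 (FOS and JUN dimers) and EGR factors are immediate-early transcription factors that growth factor receptors induce, and GATA factors bind the regulatory elements of erythroid genes.

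The sequences that follow are the reference bases within 100 bp of the summit (GRCh37, 201 bases each), read 5′ to 3′ on the strand of the lncRNA. The first set is drawn from the promoters that ranked clearly higher in both SCF libraries, were among the 10 with the widest separation and held the AP-1 word TGANTCA. AP-1 words and GATA words (AGATAA or TGATAA, both strands) are in capitals. KLKP1 (a pseudogene of the kallikrein cluster that is annotated as a lncRNA) lies at chr19:51399956-51400156 on the minus strand and LINC02542 at chr6:82648132-82648332 on the minus strand.
KLKP1: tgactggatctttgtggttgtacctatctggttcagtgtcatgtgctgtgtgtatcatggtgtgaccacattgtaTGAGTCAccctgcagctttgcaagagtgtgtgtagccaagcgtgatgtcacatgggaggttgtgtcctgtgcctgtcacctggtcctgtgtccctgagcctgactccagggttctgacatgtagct
LINC02542: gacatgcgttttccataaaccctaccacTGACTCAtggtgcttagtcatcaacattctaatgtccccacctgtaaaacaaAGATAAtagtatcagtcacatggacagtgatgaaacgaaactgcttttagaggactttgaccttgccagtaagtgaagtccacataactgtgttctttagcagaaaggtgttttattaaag

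In KLKP1 the AP-1 word began 25 bases before the summit. In LINC02542 an AP-1 word began 72 bases and a GATA word 20 bases before the summit. A match of letters is a description of the window and not evidence that a factor was bound.

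The second set shows the 4 lncRNA-only promoters with the highest ranks, as the other end of the range. Capitals mark words on either strand, namely GATA words, CCAAT, the SP/KLF word GGGCGG and the ETS word CCGGAAG. ENSG00000290854 lies at chr1:1677815-1678015 (minus strand), ENSG00000291259 at chr15:28834267-28834467 (plus), ENSG00000260100 at chr9:37079637-37079837 (minus) and ENSG00000290055 at chr6:26474133-26474333 (plus).
ENSG00000290854: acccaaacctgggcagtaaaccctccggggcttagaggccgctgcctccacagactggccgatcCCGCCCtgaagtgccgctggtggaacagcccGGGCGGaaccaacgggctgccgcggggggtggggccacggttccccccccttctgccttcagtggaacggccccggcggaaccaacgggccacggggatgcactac
ENSG00000291259: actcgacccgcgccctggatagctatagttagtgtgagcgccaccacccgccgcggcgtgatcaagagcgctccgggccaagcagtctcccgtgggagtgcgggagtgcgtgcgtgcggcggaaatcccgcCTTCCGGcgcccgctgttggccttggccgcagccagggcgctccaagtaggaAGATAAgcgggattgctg
ENSG00000260100: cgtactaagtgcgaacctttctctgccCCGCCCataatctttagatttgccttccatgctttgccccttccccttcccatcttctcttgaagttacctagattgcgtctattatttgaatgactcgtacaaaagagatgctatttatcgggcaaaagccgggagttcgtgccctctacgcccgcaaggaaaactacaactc
ENSG00000290055: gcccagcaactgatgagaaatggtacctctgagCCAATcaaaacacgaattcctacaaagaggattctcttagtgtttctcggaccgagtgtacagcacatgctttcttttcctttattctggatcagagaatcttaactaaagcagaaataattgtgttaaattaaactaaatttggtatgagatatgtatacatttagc

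None of these 4 windows held an AP-1 word. ENSG00000290854 held 2 SP/KLF words, of which the nearer began 5 bases before the summit, whereas ENSG00000290055 held 1 CCAAT word. ENSG00000291259 held an ETS word and a GATA word.

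The lists held 30240 and 33616 peaks for PBS replicates 1 and 2, and 29269 and 33324 for SCF replicates 1 and 2. Relative to PBS replicate 1, the depth recovered from the background was 1.42 for PBS replicate 2, 0.883 and 0.843 for SCF replicates 1 and 2, so that both SCF libraries were shallower than both PBS libraries. Promoters of 9 of 12 erythroid markers, GATA1 and KLF1 among them, were called in all 4 libraries, HBG2 was called in none, and ALAS2 and HBA1 were called only in PBS replicate 2. Of 10 markers of other lineages and tissues, 6 were called in no library, while others, CD8A and CD14 among them, were called in all 4.

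The lncRNA-only promoters were spread over all 24 chromosomes, with 150 on chromosome 1. The median distance of the summit from the nearest lncRNA start was 157 bp, 558 summits (36.0%) lay within 100 bp and 1001 (64.7%) within 250 bp. Summits fell about equally on either side of the start, with 794 (51.3%) upstream. The nearest protein-coding start was a median of 29.6 kb away, and 522 regions (33.7%) were over 50 kb from any. Most summits, 1309 (84.6%), lay in no protein-coding gene, 169 (10.9%) lay inside one on its opposite strand, 66 (4.26%) inside one on its own strand, and 4 inside genes of both strands.

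**Figure D1:**
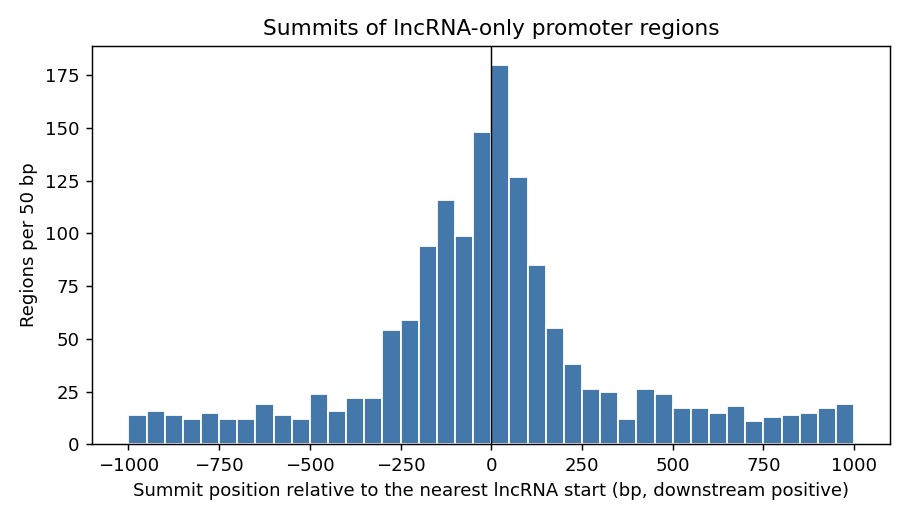
Number of lncRNA-only promoter regions (y axis, regions per 50 bp) by the position of the summit relative to the nearest lncRNA start (x axis, bp, downstream positive). The counts are highest around the start, and 1001 of 1548 summits lie within 250 bp of it.

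The rule left out most accessible lncRNA starts. In all, 4665 regions had a summit within 1 kb of a lncRNA start, and 2754 of these were also within 1 kb of a protein-coding start. At the edge of the rule, the outermost member lay 996 bp from its lncRNA start and the next region outside lay at 1001 bp. The 296 members with a start at 500 to 1000 bp had a median of 28.7 for the mean rank over the libraries that called them, against 28.2 in the 249 regions just outside, at 1000 to 1500 bp. Of the former 44.9% and of the latter 37.8% were called in all 4 libraries.

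The members lay near the starts of 1602 lncRNA genes, and 869 (56.1%) were nearest to a gene that has only an Ensembl identifier. Multiple accessible starts occurred in 109 genes, with PVT1, a neighbour of MYC, holding the most at 7. Counted by gene, 12173 lncRNA genes had every start over 5 kb from protein-coding starts, and between 9.63% and 10.6% of them had a region called within 1 kb, depending on the library. The same count for 20163 protein-coding genes was 62.6% to 64.0%. Genes were counted whether or not they are transcribed in these cells, since RNA was not used here.

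LncRNA-only promoters were called less often than protein-coding promoters and more often than distal regions in every library. PBS replicates 1 and 2 called 1161 (75%) and 1299 (83.9%) of the 1548, and SCF replicates 1 and 2 called 1143 (73.8%) and 1224 (79.1%). The most were called in the deepest library, PBS replicate 2, but the shallowest, SCF replicate 2, called more than PBS replicate 1 and SCF replicate 1. Against the 15101 protein-coding promoters (summit within 1 kb of a protein-coding start) the difference in the share called was -9.96 ± 2.52 percentage points as members minus promoters (SD, n = 4 libraries), with a range of -12.0 to -6.50. Against the 20783 distal regions, which were over 5 kb from protein-coding and over 1 kb from lncRNA starts, it was 16.4 ± 3.64 points higher (11.6 to 20.2). The two-sided exact sign-flip permutation test gave p = 0.125 for each, the smallest value that 4 libraries allow.

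Over all regions, 51.3% were called in all 4 libraries. The share was 61.2% (947 of 1548) in lncRNA-only promoters, 78.4% in protein-coding promoters and 34.9% in distal regions. A further 144 lncRNA-only promoters were called in 3 libraries, 150 in 2 and 307 in 1. The share called in all 4 moved between 55.8% and 66.5% when the distance to the start, the kind of start or the peak threshold was changed, and was 66.1% to 67.0% when any 1 library was left out.

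Signal strength was compared as the percentile rank of a peak's fold enrichment within its own list (100 is the strongest), since lists of different depth share no unit of height. Such a rank still depends on how many weak peaks a list holds. The median rank of called lncRNA-only promoters was 56.5 in both PBS libraries, and in the SCF libraries it was 54.7 and 57.5. Protein-coding promoters had medians of 70.5, 71.5, 69.7 and 70.3, and distal regions 38.5, 39.4, 38.2 and 39.7, in the same order. The medians of the 3 classes kept this order in every library. The difference between lncRNA-only and protein-coding promoters was -14.1 ± 1.04 rank points (SD, n = 4 libraries), and that between lncRNA-only promoters and distal regions 17.4 ± 0.674, each with an exact sign-flip permutation p of 0.125 (two-sided, the smallest possible). The median pileup at the summit of lncRNA-only promoters was 25 and 28 after PBS and 24 and 22 after SCF, against 53, 67, 50 and 46 at protein-coding promoters.

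**Figure D2:**
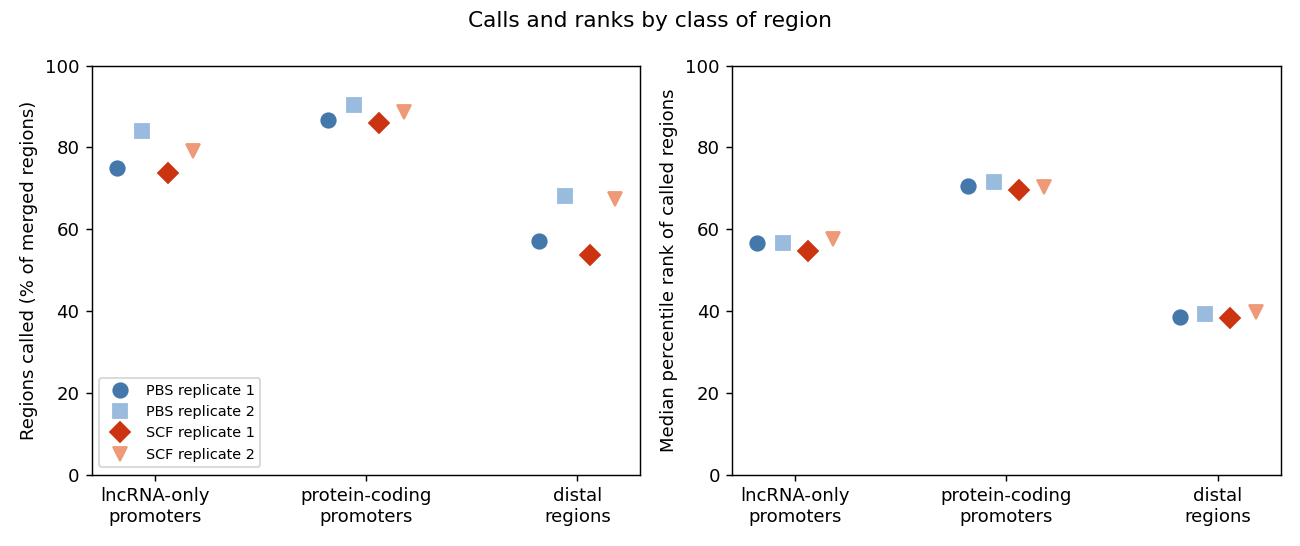
Percent of merged regions called in each library (left) and median percentile rank of the called regions (right) for lncRNA-only promoters, protein-coding promoters and distal regions. Each point is 1 library. In both panels lncRNA-only promoters, at 73.8% to 83.9% called and a median rank of 54.7 to 57.5, lie between the other classes.

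The base composition of the lncRNA-only promoters was mixed. Within 100 bp of the summit the median GC content was 58.7%, against 66.7% in protein-coding promoters and 47.8% in distal regions. The median ratio of observed to expected CpG was 0.513, against 0.808 and 0.219. A ratio of at least 0.6 (CpG-rich) was found in 661 lncRNA-only promoters (42.7%), in 73.6% of protein-coding promoters and in 8.56% of distal regions.

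CpG-rich lncRNA-only promoters had higher ranks than CpG-poor ones in all 4 libraries. Their median ranks were 69.1 and 68.9 in PBS and 66.7 and 68.1 in SCF libraries, against 43.5, 44.8, 45.4 and 44.7 for the 887 CpG-poor ones. The CpG-rich ones were called in all 4 libraries in 78.7% of cases and the CpG-poor ones in 48.1%. Compared within the CpG-rich class, lncRNA-only promoters ranked 6.94 points below protein-coding promoters (per library, members minus promoters, -7.70 to -5.73), and the difference was -11.8 when ranked by −log10 p. Within the CpG-poor class the difference was 2.76 points in favour of lncRNA-only promoters (1.35 to 4.29), but ranking by −log10 p in place of fold enrichment turned it to -2.87. Both differences had an exact sign-flip permutation p of 0.125 (two-sided, 4 libraries).

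**Figure D3:**
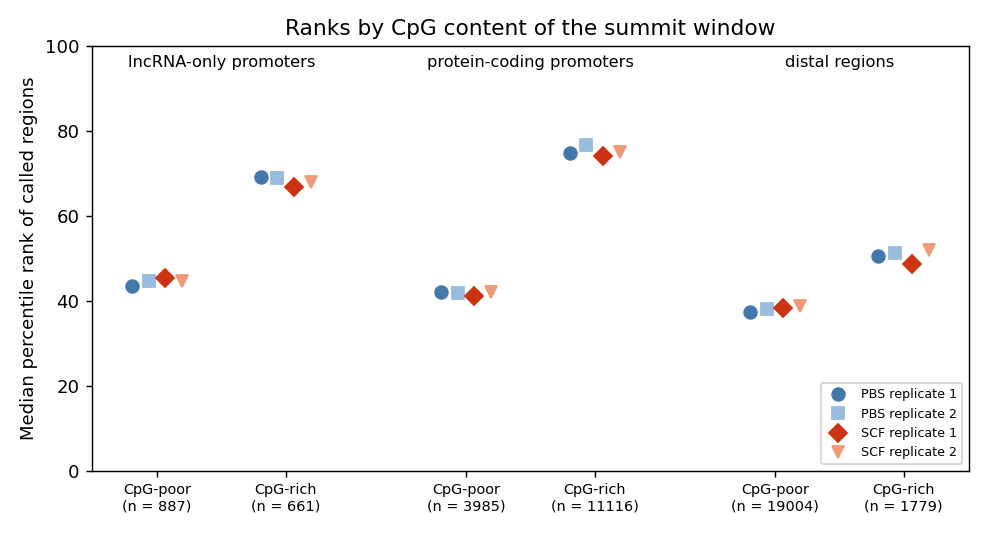
Median percentile rank of called regions (y axis) in CpG-poor and CpG-rich regions of each class (x axis, with the number of regions). Each point is 1 library. CpG-rich lncRNA-only promoters have medians of 66.7 to 69.1 and CpG-poor ones 43.5 to 45.4, next to 74.0 to 76.6 and 41.1 to 42.1 in protein-coding promoters.

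Position and neighbours also went with rank. The 558 promoters with a summit within 100 bp of the start had median ranks of 63.6 to 65.0 over the libraries, and the 296 with a summit over 500 bp away 37.2 to 40.1 (medians within each library over the regions it called). Regions with lncRNA starts on both strands (169) had medians of 71.7 to 74.3, against 52.9 to 55.6 for those with starts on 1 strand. Regions inside a protein-coding gene on its opposite strand had medians of 46.6 to 52.0, against 55.8 to 59.5 for those outside protein-coding genes. The 31 bases at the summit occurred at several places in the genome in 129 lncRNA-only promoters (8.33%). The share was 1.29% in protein-coding promoters, 5.92% in distal regions and 4.17% in all regions. Reads at such repeated sequence can be placed at the wrong copy. The 129 promoters had medians of 59.2 to 62.5 against 54.3 to 57.2 for the other lncRNA-only promoters.

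Words were searched on both strands within 100 bp of the summit, and those for AP-1, GATA, EGR and SP/KLF stood at shares between those of the other classes. The AP-1 word was found in 129 lncRNA-only promoters (8.33%), against 3.28% of protein-coding promoters, 11.9% of distal regions and 8.43% of all regions. GATA words were found in 261 (16.9%), against 7.67%, 37.5% and 25.4%. The EGR word GCGTGGG was found in 79 (5.10%), against 6.58%, 2.00% and 3.80%. The SP/KLF word was found in 486 (31.4%), against 53.4% of protein-coding promoters and 9.77% of distal regions. The cAMP response element TGACGTCA was found in 22 (1.42%), next to 1.47% of protein-coding promoters. An ETS word was found in 79 (5.10%), an E-box (CAGCTG) in 232 (15.0%) and a CCAAT word in 353 (22.8%). The E-box stood in 12.6% of protein-coding promoters and 14.6% of distal regions, and the CCAAT word in 22% and 22.6%, each a little below the lncRNA-only promoters. A TATA box (TATAAA, between 40 and 20 bp upstream of the start) was present in 17 lncRNA-only promoters (1.10%).

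SCF and PBS libraries did not differ in the number of lncRNA-only promoters called beyond the spread between replicates. The means were 1230 ± 97.6 in PBS and 1183.5 ± 57.3 in SCF (SD, n = 2 each), a difference of -46.5 with p = 0.667 in a two-sided exact permutation test. The smallest p that 2 against 2 libraries can give is 0.333. Without PBS replicate 2, the deepest library, the difference was 24. Among the 947 promoters called in all 4 libraries the median rank was 63.7 and 67.9 after PBS and 62.1 and 66.2 after SCF, a difference of -1.65 (exact permutation p = 0.667). This difference was 0.252 without PBS replicate 2, 0.983 without SCF replicate 1 and -0.643 with equal numbers of peaks. The 4 medians stood in the same order as the numbers of peaks in the lists. SCF ranks were higher on average at 438 of the 947 (46.3%), next to 46.4% of all regions called in all 4.

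The rank of a single promoter typically moved by about as much from replicate to replicate as from a PBS to an SCF library. The median absolute rank difference was 6.66 points between the PBS replicates and 7.50 between the SCF replicates, and 6.70 to 7.45 for the 4 pairs of a PBS and an SCF library. Spearman's rho over the 947 promoters was 0.896 for the pair of PBS replicates, 0.877 for the SCF pair and 0.873 to 0.882 across treatments. These are descriptions across regions that share 4 libraries.

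A promoter was counted as SCF-only if both SCF libraries and no PBS library called it, and as PBS-only in the reverse case. Over all regions 1.65% were SCF-only and 2.37% PBS-only. Of the lncRNA-only promoters 12 (0.775%) were SCF-only and 35 (2.26%) PBS-only. The share of SCF-only calls was thus below that of all regions, and close to the 0.755% in protein-coding promoters, while the share of PBS-only calls was near the background. With 3 libraries fewer have to agree, and the SCF-only count was 29 without PBS replicate 1, 57 without PBS replicate 2, 100 without SCF replicate 1 and 66 without SCF replicate 2. In the same order the PBS-only count was 151, 87, 68 and 84. With an equal number of peaks taken from each list 19 were SCF-only.

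These were weak peaks. The 12 SCF-only promoters had pileups of 5 to 18 and ranks of 2.46 to 43.9, and the 35 PBS-only ones pileups of 6 to 23 and ranks of 0.992 to 66.3. At this depth, a site without a call may still be accessible below the caller's threshold. The SCF-only promoter with the highest mean rank was that of ENSG00000279342, with ranks of 43.9 and 32.6 and pileups of 12 and 9 in SCF replicates 1 and 2. ENSG00000288549 had ranks of 29.2 and 34.4, ENSG00000264270 of 20.5 and 41.1, and ENSG00000286880 of 20.4 and 26.1. ENSG00000233953, which lies inside BCL11A (a repressor of fetal globin genes) on the opposite strand at chr2:60722174-60722684, had ranks of 41.9 and 13.8 and pileups of 18 and 12. None of the 12 SCF-only windows held an AP-1 word and 4 held a GATA word. Of the 35 PBS-only windows 2 held an AP-1 word and 6 a GATA word. Over all lncRNA-only promoters the shares were 8.33% and 16.9%, and so few windows allow no comparison with them.

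The highest ranked PBS-only promoter was that of ENSG00000249359 on chromosome 5, with ranks of 51.6 and 66.3 and pileups of 14 and 21 in PBS replicates 1 and 2. The 31 bases at its summit occur at 10 places in the genome, so its reads cannot be assigned with certainty. TRD-AS1, antisense to the T cell receptor delta locus, had ranks of 40.1 and 35.6. MIRLET7BHG, a host of let-7 microRNAs, had ranks of 40.4 and 33.6. LINC01504 had ranks of 42.1 and 32.7 and ENSG00000261696, next to the interferon alpha cluster, 30.0 and 46.5.

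For promoters called in all 4 libraries, a rank gain was counted where the lower SCF rank exceeded the higher PBS rank by at least 10 points, and a rank loss in the reverse case. Over all regions called in all 4 libraries 2.56% were rank gains and 3.04% rank losses. Of the 947 lncRNA-only promoters 21 (2.22%) were gains, near the background, and 38 (4.01%) were losses, above it. Protein-coding promoters held 1.07% gains and 2.10% losses, and distal regions 4.52% and 4.13%. Gains numbered 50 without PBS replicate 1, 93 without PBS replicate 2, 104 without SCF replicate 1 and 55 without SCF replicate 2, and losses 123, 72, 94 and 147. Losses thus outnumbered gains with all 4 libraries but not when PBS replicate 2 or SCF replicate 1 was left out. The part of the lower depth of the SCF libraries in these counts was not tested.

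**Figure D4:**
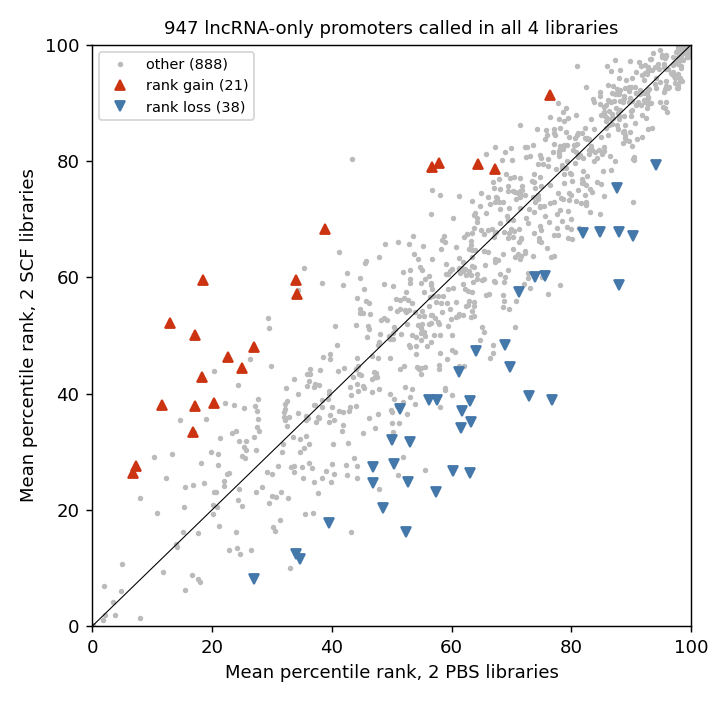
Mean percentile rank in the 2 SCF libraries (y axis) against that in the 2 PBS libraries (x axis) for the 947 lncRNA-only promoters called in all 4 libraries. Up triangles mark the 21 rank gains and down triangles the 38 rank losses, and the line marks equal ranks.

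The largest rank gain was at ENSG00000289351, 257 bp downstream of its start and 18.8 kb from the nearest protein-coding start, that of COPG1. Its ranks were 19.2 and 17.9 after PBS and 59.7 and 59.5 after SCF, with pileups of 12 and 16 against 28 and 27. Pileups were higher in both SCF libraries although these were the shallower ones. At KLKP1 the ranks were 11.9 and 22.5 in PBS and 50.8 and 49.5 in SCF, with pileups of 9 and 12 against 20 and 17. At LINC02542 they were 59.6 and 53.9 in PBS and 81.7 and 76.2 in SCF, with pileups of 20 and 24 against 28 and 24. The last promoter had the same pileup in PBS replicate 2 and SCF replicate 2, at relative depths of 1.42 and 0.843. Pileups were not scaled for depth.

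The other gains among the 10 with the widest separation carried no AP-1 word, save PVT1. The PVT1 region at chr8:128871902-128872516, at an internal start 121 kb from that of MYC, had ranks of 20 and 25.3 in PBS and 51.3 and 41.1 in SCF. The other 5 PVT1 regions called in all 4 libraries were no gains and had lower mean ranks in SCF, with differences of -16.2 to -0.375 points. ENSG00000287464 had ranks of 2.78 and 23.2 in PBS and 42.1 and 62.1 in SCF, the widest spread between replicates of these 10. ENSG00000289938 had 11.7 in both PBS libraries and 45.7 and 30.4 in SCF. ENSG00000235189 had 25 and 28.9 against 46.4 and 49.7, LINC02043, which lies 17.0 kb from the adipokine gene ADIPOQ, 9.97 and 4.61 against 27.4 and 27.8, and ENSG00000259792 17.2 and 16.5 against 33.0 and 33.9. ENSG00000254973 had 40.2 and 28.0 against 54.2 and 64.7. Over the 21 gains the separation ran from 10.3 to 40.3 points and the pileups from 8 to 71.

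The rank loss with the widest separation was at ENSG00000290045, inside EIF3I (a subunit of a translation initiation factor) on the same strand, with ranks of 54.7 and 50.2 after PBS and 12.4 and 20.1 after SCF. Its pileups were 27 and 33 against 15 and 15. CRYZL2P-SEC16B, a readthrough transcript, stood high in PBS at 88.6 and 87.2 and lower in SCF at 54.7 and 62.8, with pileups of 33 and 43 against 16 and 17. ENSG00000236501, 63.7 kb from the nearest protein-coding start, had ranks of 65.6 and 88.0 against 38.2 and 39.7. The groups did not overlap in any of these, as the definition requires. ENSG00000258131 had 66.3 and 54.1 against 27.6 and 25.8, LINC02363 66.1 and 60.1 against 12.1 and 40.6, and ENSG00000232377 60.6 and 62.9 against 41.3 and 32.6. LINC01942 had 84.7 and 61.3 against 36.1 and 43.1. The remaining members of the 10 widest, MIR924HG, ENSG00000286108 and LINC02351, had PBS ranks of 34.2 to 67.1 and SCF ranks of 7.92 to 38.2.

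**Figure D5:**
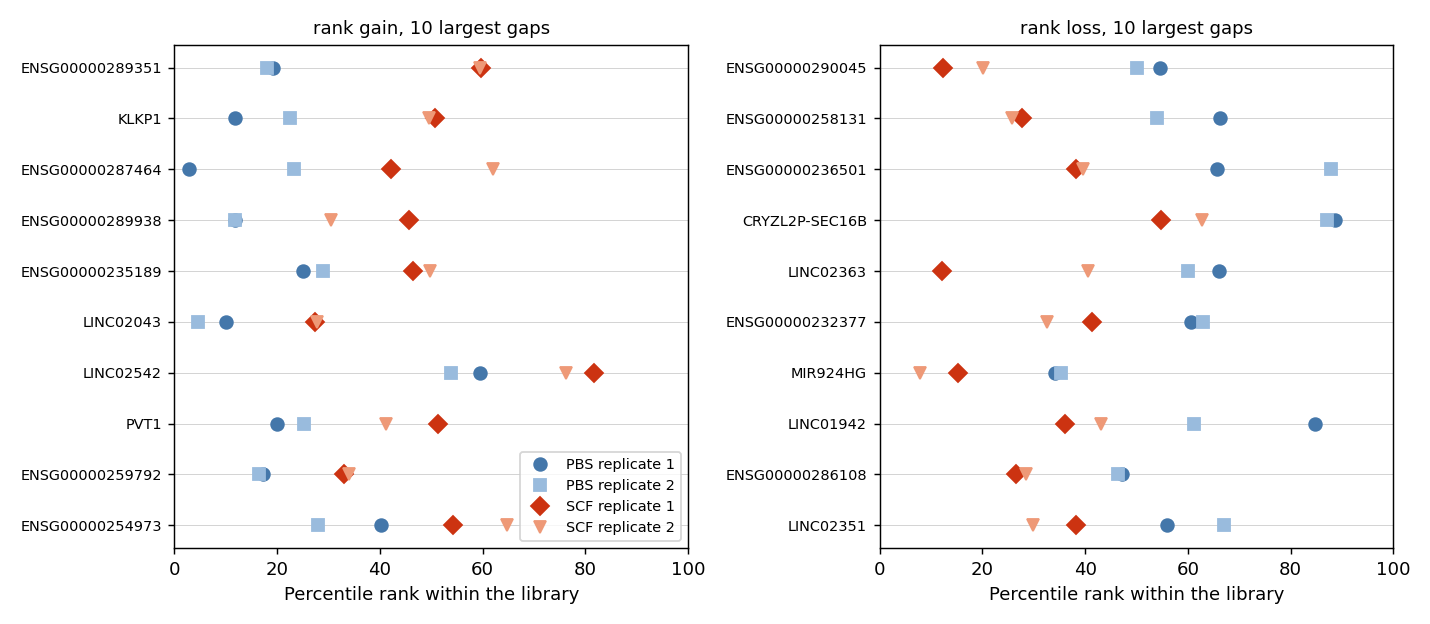
Percentile ranks (x axis) in the 4 libraries for the 10 rank gains (left) and 10 rank losses (right) with the widest separation of the treatments. Circles and squares are the PBS libraries, diamonds and triangles the SCF libraries. At ENSG00000289351 the SCF libraries lie at 59.7 and 59.5 and the PBS libraries at 19.2 and 17.9.

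The words at gains and losses were counted without a test. Each window was centred on the summit of the highest ranked peak. By definition, gain windows were thus centred on SCF summits and loss windows on PBS summits. This also holds with a library left out, and its part in the word shares was not tested. The AP-1 word was present in 7 of 21 gains (33.3%), in 2 of 38 losses (5.26%) and in 77 of the 947 promoters called in all 4 libraries (8.13%). The gains were ENSG00000289351, KLKP1, LINC02542, PVT1, ENSG00000230615, ENSG00000233616 and ENSG00000288612, and the losses were PCAT1 and SNHG11. These members are part of a set of all regions in which more AP-1 words had been seen at sites that gain rank, so the counts are no independent evidence. Among distal regions the word stood in 27.4% of gains and 5.67% of losses, and among protein-coding promoters in 11.8% and 4.02%. With 1 library left out the share in lncRNA-only gains was 18% without PBS replicate 1, 18.3% without PBS replicate 2, 19.2% without SCF replicate 1 and 14.5% without SCF replicate 2, while that in losses was 4.07%, 12.5%, 5.32% and 6.80%. The share in gains was the larger in each case.

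GATA words stood in 7 of 21 gains (33.3%) and 3 of 38 losses (7.89%), against 149 of 947 (15.7%). With 1 library left out these shares were 16.4% to 27.9% in gains and 10.6% to 18.1% in losses, and they lay closest without PBS replicate 2, at 20.4% and 18.1%, and without SCF replicate 2, at 16.4% and 15.0%. Ranked by −log10 p they were 18.2% and 14.8%, so that the GATA counts do not separate gains from losses in every setting. The EGR word stood in 2 of 21 gains (9.52%) and 4 of 38 losses (10.5%), against 56 of 947 (5.91%). The gains were ENSG00000288271 and ENSG00000289923. The losses were CRYZL2P-SEC16B, ENSG00000232377, ENSG00000272449 and ENSG00000288885. CpG-rich windows made up 5 of the 21 gains and 23 of the 38 losses, against 520 of the 947. Gains had a median rank of 22.7 in PBS and 50.1 in SCF libraries, and losses of 61.7 and 38.0, an order that the definition of gains and losses largely sets.

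LncRNAs of 3 lists drawn from general knowledge were then read, their counts being descriptions. Of 69 annotated host genes of snoRNAs or microRNAs, 33 had a lncRNA-only promoter, with 42 regions in all. Of these 30 were called in all 4 libraries, with a median rank of 67.5 against 64.5 over all 947. None was a gain, 3 were losses (SNHG11, MIR9-1HG and MIR924HG) and 2 were PBS-only (MIRLET7BHG and MIR124-1HG). MIR210HG, host of a microRNA induced by hypoxia, had the highest mean rank, at 89.1 and 96.7 in PBS and 96.3 and 96.1 in SCF. SNHG8 had 87.6 and 85.8 against 92.1 and 80.5, SNHG25 83.7 and 89.9 against 88.6 and 87.7, and SNHG12 80.4 and 80.3 against 80.2 and 85.4. These snoRNA hosts overlapped between treatments. Ranks without overlap were common among the 947: both SCF ranks lay above both PBS ranks at 141 and below both at 183. Over all 22355 regions called in all 4 libraries these counts were 3567 and 4307. SNHG30 had 91.8 and 91.7 against 89.1 and 79.2, whereas CYTOR had 81.0 and 92.2 against 96.8 and 94.0, both without overlap and by less than 10 points. EPB41L4A-AS1 and SNHG6 had ranks of 79.0 to 90.9 with no separation of the treatments.

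SNHG11, a loss named after its values were seen, had ranks of 75.7 and 75.5 in PBS and 62.1 and 58.3 in SCF. MIR29B2CHG, host of microRNAs of the miR-29 family, was among the lowest, at 1.5, 2.05, 0.885 and 1.17 in PBS replicates 1 and 2 and SCF replicates 1 and 2.

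Another list was headed well-studied nuclear or structural lncRNAs, and where these RNAs reside was not measured here. Of its 35 annotated genes, 13 had 24 lncRNA-only promoters. Of these 17 were called in all 4 libraries, with a median rank of 50.7. PVT1 held the 1 gain, and PCAT1 held the 1 loss and the 1 SCF-only call, at different starts. FIRRE, an X-linked RNA that contacts several chromosomes, stood at 90.9 and 91.6 in PBS and 95.9 and 98.0 in SCF, higher by less than 10 points. MALAT1, an abundant RNA of nuclear speckles, had 59.5 and 67.3 in PBS and 74.0 and 72.4 in SCF, with pileups of 127 and 200 against 146 and 129. Its ranks did not overlap between treatments but were separated by less than 10 points. Its pileups overlapped, but pileups were not scaled for the differing depths of the libraries. UCA1 had 53.7 and 59.9 against 81.7 and 68.4, again without overlap and by less than 10 points. NORAD, which binds Pumilio proteins, had 88.3 and 86.4 in PBS and 80.4 and 79.7 in SCF. FTX and JPX, of the X-inactivation centre, had 88.2 and 81.5 against 80.9 and 71.2, and 77.7 and 86.2 against 74.2 and 78.4. NORAD and FTX were lower in both SCF libraries, by less than 10 points, and JPX overlapped. KCNQ1OT1, an imprinted antisense RNA, overlapped between treatments at 63.0, 61.7, 52.7 and 68.2. The start region of NEAT1, the scaffold of paraspeckles, ranked low in every library, at 4.71, 4.99, 10.7 and 1.26.

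PCAT1 showed both directions. The region at chr8:127836638-127837316 had ranks of 51.6 and 63.3 in PBS and 38.2 and 7.92 in SCF, whereas the region at chr8:127888794-127889109 was called only in the SCF libraries, with ranks of 27.0 and 15.9 and pileups of 10 and 7. The SCF replicates of the first region differed from each other by more than the least distance between treatments.

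Of 31 annotated lncRNAs linked to blood cells, 14 had 16 lncRNA-only promoters. Of these 12 were called in all 4 libraries, with a median rank of 61.0, 1 being a gain (CCDC26) and 2 being losses (LINC00173 and LINC02573). CCDC26, a myeloid leukaemia locus named after its values were seen, had ranks of 26.0 and 51.8 in PBS and 63.8 and 72.8 in SCF at a site 661 bp upstream of a start. Another CCDC26 region, 45 bp from a start, had ranks of 32.0 and 40 in PBS and 22.5 in SCF replicate 1, and was not called in SCF replicate 2. LINC00173 had 89.4 and 86.5 in PBS and 73.9 and 61.8 in SCF, with pileups of 48 and 59 against 35 and 24. LINC02573 had 68.1 and 69.8 against 43.4 and 53.3. MIR17HG, the host of an oncogenic microRNA cluster, had 66.8 and 70.4 against 49.8 and 59.8, without overlap and by less than 10 points. LINC00467, LINC00570, LINC01215, LUCAT1 and MIR155HG overlapped between treatments, with ranks of 52.1 to 96.1.

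The 10 highest ranked lncRNA-only promoters stood so near the top of each list that their ranks leave almost no room for a difference, and SCF minus PBS differences of mean rank were -0.921 to 0.334. ENSG00000290854, with summit pileups of 370, 501, 296 and 310, was at rank 100 after rounding in every library, with fold enrichments of 30.7 and 32.8 after PBS and 28.4 and 30.4 after SCF. At ENTPD1-AS1 the fold enrichment was 22.5 and 20.7 after PBS and 17.4 and 20.7 after SCF. ENSG00000260100 had ranks of 99.8 to 99.9, ENSG00000291259 of 99.9 to 100, and ENSG00000290055, inside the butyrophilin gene BTN2A1, of 99.7 to 99.8. The 31 bases at the summit of ENSG00000291259 and of LINC02256 occur at 3 places in the genome each. The other 6 of the 10 highest, LINC01002, ENSG00000291203, LINC02256, ENSG00000290989, RPL23AP7 (a ribosomal protein pseudogene) and ENTPD1-AS1, had ranks between 98.0 and 99.9 in all libraries.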

How the data were processed

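ATAC-seq peak lists of 4 HUDEP-2 sgControl libraries (PBS and SCF, 2 each) were analysed, and groups were taken from the labels. Per the methods, the authors sequenced paired ends and ran the ENCODE ATAC-seq pipeline, and the submitters' processing notes name bcl2fastq, Bowtie2 and SAMtools without versions. The caller is not given in the sources used here. The methods name hg38 but the file headers hg19, which was used: 0 chromosomes of GRCh37 were shorter than a peak end. Peak names carry replicate numbers (2 and 3 for PBS, 1 and 2 for SCF) that differ from the labels. The deposited score column was not used. The deposited signal column is a fold enrichment (a ratio to local background), and the authors' last columns are −log10 p and −log10 q, with q of at most 0.0497 in each list, called per library without pooling.

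Regions were merged at an overlap of 1 bp. Regions off 24 chromosomes were left out of all classes (85 of 43654). Starts were those of all GENCODE 44 transcripts. Ranks, words and classes were computed with Python 3.11.15, numpy 2.4.6, pandas 2.3.3, scipy 1.17.1 and pysam 0.24.0, and scripts were tested on simulated data. Whole-number pileups were recovered from fold and −log10 p in 100% of peaks (relative tolerance 0.0001). Whether a pileup counts fragments or read ends is not known. Read totals are unknown, so no counting interval was given. A few items, among them the sequence of a rank gain promoter, are not reported here.

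Libraries were the replicates: treatments were compared by exact permutation and classes by exact sign-flip permutation over libraries. Members and lists were chosen with earlier results of these data known. Named members were the 10 with the highest mean rank, the 5 highest SCF-only and PBS-only, the 10 gains and losses with the widest separation, and up to 8 per list. Replicate numbers were not used to pair the libraries. Replicate differences of PBS and SCF correlated at 0.0073 over 947 promoters. This cannot show whether libraries were prepared in pairs, since ranks within a list remove shifts shared by a whole library. Other ranks, thresholds, distances, windows, rank gaps and libraries left out were tried.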

Additional observations from a re-analysis of the deposited data

How the results depend on the processing

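Of 98 alternatives that did not leave out a library, 79 kept the sign of a tested difference or stayed near the reported count or share. P-values were not compared for this. Some alternatives could change little: the replicate block leaves a difference of means as it is. Ranking by −log10 p does not alter which libraries called a region. Equal numbers of peaks shrank the SCF minus PBS difference from -46.5 to -20.5 calls and from -1.65 to -0.643 rank points. The share of members called in all 4 libraries (61.2%) was 64.5% with equal numbers of peaks, 66.5% at a −log10 q of at least 5, 58.3% if the peak had to cover the summit, 65.6% with gene starts only, and 65.0% or 55.8% with starts within 500 bp or 2 kb. SCF-only members numbered 19 with equal numbers of peaks and 28 within 2 kb. Rank gains numbered 11 ranked by −log10 p, and gains and losses 50 and 80 at a gap of 5 points and 2 and 4 at 20 points. The AP-1 share was 7.06% with gene starts and 18.7% within 250 bp of the summit, and the GATA share 14.9% and 30.7%, and 14.5% or 20.2% with starts within 500 bp or 2 kb. The CpG-poor difference from protein-coding promoters, an alternative chosen after seeing the data, was -2.87 ranked by −log10 p. Ranking by −log10 p put lncRNA-only promoters 20.2 points below protein-coding promoters, as a difference of -20.2.

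With a library left out, the SCF minus PBS number of calls ranged from -116.5 to 24 and turned to 24 without PBS replicate 2. The share called in all libraries ranged from 66.1% to 67.0%, SCF-only members from 29 to 100, PBS-only from 68 to 151, gains from 50 to 104 and losses from 72 to 147, since fewer libraries had to agree. The difference in median rank ranged from -4.22 to 0.983, at 0.252 without PBS replicate 2 and 0.983 without SCF replicate 1. Other causes were not tested.

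With the replicate block the differences were the same, -46.5 calls and -1.65 rank points, and p was 0.5 for both in an exact two-sided sign-flip permutation, which 2 pairs cannot go below. Whether the replicate numbers pair the libraries is not known. Depth limits what an uncalled weak promoter can show.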
